A study of Bos taurus with 18 samples.

Results

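Matrix metalloproteinases (MMPs) and their tissue inhibitors (TIMPs) were followed across cultures of bovine bone marrow mesenchymal stem cells (MSCs). The 10 genes were taken by symbol: MMP1, MMP2, MMP3, MMP12, MMP13, MMP14, TIMP1, TIMP2, TIMP3 and TIMP4, out of 16989 gene symbols counted in each library. The series held 18 RNA-seq libraries: 17 clonal populations (A to Q), each labelled as a clone, and 1 heterogeneous population (Het) of MSCs that had not been cloned. All cultures were grown on tissue culture plastic in DMEM with FBS and antibiotics, polyadenylated RNA was sequenced at passage 1, and no genetic change or inducing factor is given for any culture. The marrow came from juvenile cattle according to the study's methods, each clone had grown out of a single cell, and the design text gives the same donor for all clones and for Het, so differences between animals did not enter. Each culture was sequenced as 1 library, so no clone carried a replicate error of its own, and p-values measured only the spread between libraries.

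MMPs are zinc-dependent proteases, made as inactive precursors, that cleave collagens, proteoglycans and other components of the extracellular matrix. TIMPs bind the active site of MMPs and block them, and TIMP2 also takes part, together with the membrane-bound MMP14, in activating the MMP2 precursor on the cell surface. In bone marrow stromal cells and cartilage, the balance of these enzymes and inhibitors is known to bear on how matrix is laid down and remodelled. RNA counts measure neither the active enzymes nor the secreted inhibitors.

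Libraries held 11484812 to 18458157 reads on genes in the clones (median 14193790) and 16092501 in Het, so that 3 reads stood for 0.163 to 0.261 of the unit CPM (read counts scaled to a common library total on genes), the limit that a count of 0 allowed. Levels are given below as CPM and are not corrected for gene length, so they were compared between libraries and not between genes. The mesenchymal label fitted 7 of 9 stromal markers (NT5E, THY1, ENG, PDGFRA, PDGFRB, CD44 and ALCAM), each with at least 870 reads in every clone, whereas LEPR had at most 2 reads in any library and VCAM1 had a clone median of 1 read. Clones C and O were the closest pair of libraries: 21.1% of 10893 genes differed between them beyond counting noise by a chi-square test at p under 0.05, where counting noise alone gives 5%. The next closest pair, E and F, reached 36.3%, and C and O were kept as 2 clones. Each p-value below treats C and O as independent of each other, which was not tested. They were left out together only for correlations with TIMP3. In the fits of 1 clone against the others, each was among the references of the other. Clone N stood apart, with 86 of the 90 genes called when each clone was set against the others.

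**Figure D1:**
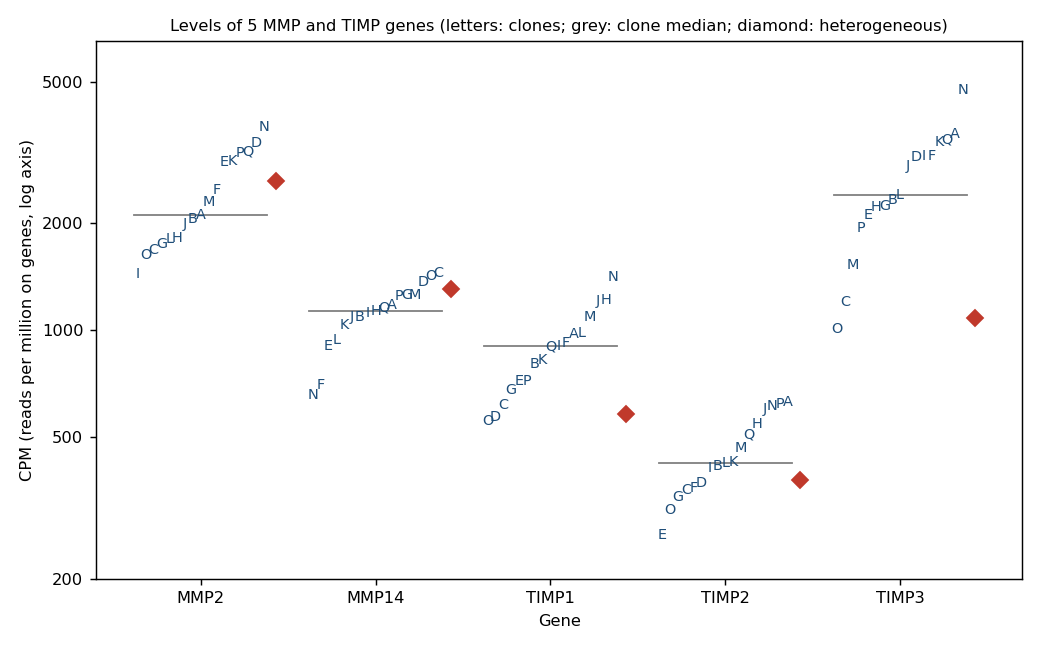
Level of the 5 abundantly counted genes in every library, as CPM on a log axis; letters are the 17 clones in rising order, grey lines are clone medians and diamonds are the heterogeneous population. By CPM, clone N was highest for MMP2 (D with TMM scaling), TIMP1 and TIMP3 and lowest for MMP14, and the heterogeneous population lay low for TIMP3, above clone O alone. Heights of different genes are not to be compared, because the values are not per length.

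The family split into 5 deeply counted genes with at least 4122 reads in every library (MMP2, MMP14, TIMP1, TIMP2 and TIMP3) and 5 genes that reached at most 26 reads in any clone (MMP1, MMP3, MMP12, MMP13 and TIMP4). Every clone therefore carried the gelatinase, the membrane-type activator and 3 of the 4 inhibitors, while the collagenases, stromelysin, elastase and TIMP4 were at the edge of detection. The spread between clones was measured as the SD of log2(CPM + 0.25), whose median over 11477 genes was 0.35. MMP14 varied less than that (SD 0.32, at the 44.9th percentile of genes). TIMP2 (SD 0.38, 55.6th percentile), TIMP1 (0.39, 57.9th) and MMP2 (0.43, 62.8th) lay a little above it, and TIMP3 varied most of the abundant genes (0.58, 77.5th percentile). For the sparse genes the SD was 0.66 for MMP1, 0.66 for MMP3, 0.48 for MMP13, 0.54 for TIMP4 and 0.93 for MMP12. At counts this low the added 0.25 CPM narrows the spread, so these SDs were not set against counting error.

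The interstitial collagenases, which make the first cut in fibrillar collagen, were barely counted. MMP1 had 0 to 21 reads in the clones (median 4), with 4 clones at 0 and 1 read in Het. The largest MMP1 count, 21 reads in clone M (1.14 CPM, exact Poisson 95% interval 0.704 to 1.74), stood above the next clone, P, at 8 reads (0.462 CPM, 0.199 to 0.910), and the intervals, which cover counting error only, overlapped. MMP13, the collagenase best known from cartilage and bone, had 0 to 8 reads in the clones (median 1), with 5 clones at 0. Het had 6 MMP13 reads (0.373 CPM, 0.137 to 0.812), as many as clone Q and fewer than clone P, whose 8 reads were the most. MMP13 did not pass the filter on low counts in either comparison, and its order between libraries was not detectable at this depth.

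MMP3 (stromelysin 1) cleaves proteoglycans and can activate other MMP precursors. It had 0 to 7 reads in 16 clones and 26 reads in clone M (1.41 CPM, 0.920 to 2.06), and no read in Het. Clone M was thus highest for both MMP1 and MMP3. In the RefSeq annotation of the ARS-UCD2.0 assembly, MMP13, MMP12, MMP3 and MMP1 are consecutive coding genes on chromosome 15. The other 2 genes of that cluster were not highest in clone M, which had 3 reads of MMP13 and 6 of MMP12. Both MMP1 and MMP3 passed the filter on low counts only through clone M, so their values in M are a description, with no test, and neither was called there.

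**Figure D2:**
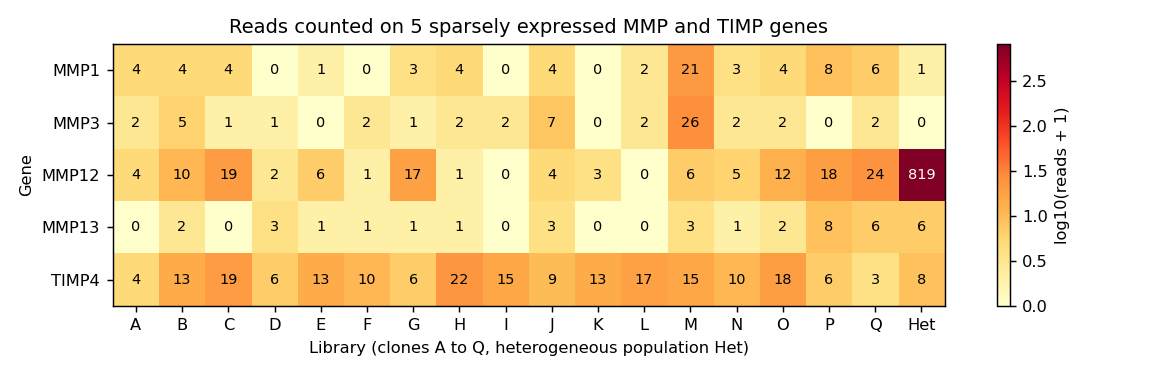
Reads counted per library on the 5 sparse genes; columns are the 17 clones and the heterogeneous population (Het), numbers are reads and colour is log10(reads + 1). The only large count is MMP12 in Het, 819 reads against at most 24 in any clone, and clone M has the most MMP1 and MMP3 reads.

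MMP12, macrophage elastase, was the 1 gene of the 10 that Het carried at a level outside the clones. Clones had 0 to 24 MMP12 reads (median 5 reads, 0.325 CPM), whereas Het had 819 reads (50.9 CPM, exact Poisson 95% interval 47.5 to 54.5), 157 times the clone median. Among the clones, Q (24 reads), C (19), P (18), G (17) and O (12) had the most, and I and L had none. Between neighbouring clones in this order, no step exceeded the counting intervals.

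MMP2 (gelatinase A) cleaves denatured collagen and basement membrane collagen, and it was counted deeply in every library. Its lowest level was 1439 CPM in clone I, its median 2115 CPM and its highest 3740 CPM in clone N, a 2.60-fold range (mean 2381 ± 712 CPM, SD, n = 17). The order was graded, without a break into groups: in 13 of 16 steps between neighbouring clones the counting intervals did not overlap, but no replicate of any clone was there to set against them. Het, at 2637 CPM, lay above 11 of the 17 clones. With TMM scaling, which corrects library totals for a few dominant genes, clone D was highest (3442 scaled CPM) in place of N, and clone I stayed lowest.

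MMP14 (membrane-type 1 MMP) sits on the cell surface, where it cleaves fibrillar collagen and activates MMP2. It ranged 2.21-fold, from 656 CPM in clone N to 1450 CPM in clone C, with a median of 1132 CPM (mean 1118 ± 224 CPM, SD, n = 17). Clones N and F (700 CPM) formed the low end, and clone E (906 CPM) came next. Clone N, highest for MMP2 by CPM, was thus lowest for MMP14, and its MMP14 difference from the other 16 clones was -0.96 (log2, SE 0.30, unadjusted p = 0.00476, adjusted p = 0.129, edgeR quasi-likelihood test). With the DESeq2 Wald test this was the single call made on any of the 10 genes in any clone, at -0.98 with an adjusted p of 0.0202. Het had 1309 CPM, above 14 clones. With TMM scaling clone D was highest for MMP14 (1406 scaled CPM) in place of C, and N stayed lowest.

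The inhibitors differed in how widely they varied. TIMP1, a soluble inhibitor of most secreted MMPs, ran from 557 CPM in clone O through a median of 902 CPM to 1412 CPM in clone N (mean 888 ± 242 CPM, SD, n = 17). Het, at 583 CPM, lay above 2 clones only, O and D. TIMP2, the inhibitor that links MMP14 to the MMP2 precursor, ran from 266 CPM in clone E through 424 CPM to 630 CPM in clone A (mean 451 ± 116 CPM), and Het lay among the lower clones at 380 CPM, above 6 of them. With TMM scaling clone O was the lowest for TIMP2, at 295 scaled CPM.

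TIMP3, which unlike the other TIMPs stays bound to the matrix and also inhibits ADAM and ADAMTS proteases, had the widest range of the abundant genes. It spanned 4.69-fold, from 1012 CPM in clone O through a median of 2406 CPM to 4740 CPM in clone N (mean 2607 ± 949 CPM, SD, n = 17). Clones O and C (1198 CPM), the pair of libraries most alike, were lowest, and M (1523 CPM) was next. TIMP3 in clone O differed from the other clones by -1.50 (log2, SE 0.56, unadjusted p = 0.0146, adjusted p = 0.565, edgeR quasi-likelihood test), and in clone C by -1.24 (unadjusted p = 0.0446, adjusted p = 0.751, edgeR quasi-likelihood test). Het, with 1085 CPM, was below 16 of the 17 clones, and the ends of the TIMP3 order were the same with TMM scaling. TIMP3 was also the 1 gene of the 5 that moved with library size: r of log2 CPM with log2 total reads over the 17 clones was -0.53 (permutation p = 0.0292, adjusted p = 0.146 over the 5 genes), rho was -0.62 (permutation p = 0.00977) and r was -0.47 without clones D and M, against r of -0.06 to 0.14 for the other four genes. The part of depth in the TIMP3 values was not tested.

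TIMP4, an inhibitor with a narrow tissue range, had 3 to 22 reads in the clones (0.207 CPM in clone Q to 1.38 CPM in clone H, median 0.813 CPM) and 8 reads in Het (0.497 CPM). It was detected in every library, and none of the 16 steps between neighbouring clones exceeded the counting intervals. In the RefSeq annotation TIMP1, TIMP3 and TIMP4 lie within the spans of the synapsin genes SYN1, SYN3 and SYN2, and the library kit does not mark strand. Reads on the synapsins were few, at 15 to 124 for SYN1, 0 to 11 for SYN3 and 1 to 14 for SYN2 in the clones. For TIMP4, whose counts are of the same size as those of SYN2, reads of overlapping transcripts could not be told apart. MMP14 partly overlaps RBM23 (318 to 760 reads in the clones), far below the MMP14 counts.

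Whether any clone stood apart from the rest in an MMP or TIMP was asked with 1 fit per clone, each clone against the other 16. Of 153 tests on 9 of the genes (MMP13 was not tested), 0 passed an adjusted p of 0.05 with edgeR's quasi-likelihood test and 1 with DESeq2, where 0.0450% of all 199937 tests were called with edgeR. At an unadjusted p under 0.05 there were 8 of 153 (5.23%) with edgeR, against 4.40% of all tests, and 10 with DESeq2. With edgeR the share among these genes was thus near that of genes at large. The DESeq2 call fell in clone N, where DESeq2 also called far more genes than in any other clone, so it is not particular to MMP14. Without MMP1 and MMP3, which entered the tests only through clone M, there were 6 of 119 (5.04%). Those 6 were MMP14 in clone N, TIMP3 in clones O and C, TIMP2 in clone A, TIMP4 in clone Q and MMP12 in clone L, which had no MMP12 read.

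Reads of 1 gene relative to another in the same library do not depend on the scaling of libraries, and some ratios of protease to inhibitor ranged more widely than either gene alone. MMP14 reads per TIMP3 read ranged 10.2-fold, from 0.138 in clone N through a median of 0.430 to 1.41 in clone O, with C next to O at 1.21. MMP14 per TIMP2 ranged from 1.07 in clone N to 4.55 in clone O (median 2.43), and MMP2 per TIMP2 from 3.32 in clone J to 11.2 in clone E (median 5.09). MMP2 per MMP14 ranged from 1.15 in clone O to 5.70 in clone N, so clones N and O formed the ends of 3 of the 6 ratios computed. Because the genes differ in length, a ratio of 1 has no meaning of its own, and only differences between libraries can be read.

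Over the 17 clones, 10 pairs among the 5 abundant genes were compared by correlation of log2(CPM + 0.25), with p-values adjusted over the 10350 genes tested against each member. None of the 10 pairs passed an adjusted p of 0.05. Each pair had an adjusted permutation p from either member, and all were 0.102 or more. The adjustment spans 10350 genes, and none was made over the 10 pairs alone, so a missed call does not show that a pair is unrelated. The strongest was TIMP1 with TIMP2, the 2 soluble inhibitors, with r = 0.69 (permutation p = 0.00276, adjusted p = 0.175, rho = 0.68, permutation p = 0.00342), and r was 0.63 without clones D and O. MMP14 with TIMP3 gave r = -0.61 (permutation p = 0.0103, adjusted p = 0.159, rho = -0.55, permutation p = 0.0243), and r was -0.50 without clones F and N. With TIMP1 it gave a like value (r = -0.59, permutation p = 0.0120, adjusted p = 0.166, rho = -0.56, permutation p = 0.0215, r = -0.51 without F and N). Without clone N alone, r of MMP14 with TIMP3 was -0.49 and with TIMP1 -0.44. TIMP3 with TIMP1 gave r = 0.53 (permutation p = 0.0267, adjusted p = 0.189, rho = 0.44, permutation p = 0.0772). That r was 0.25 without clones C and O and 0.53 without clones D and O, so it depended on which clones were left out. MMP2 and MMP14, enzyme and activator, gave r = -0.38 (permutation p = 0.131, adjusted p = 0.277, rho = -0.31, permutation p = 0.231, r = -0.33 without D and N).

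**Figure D3:**
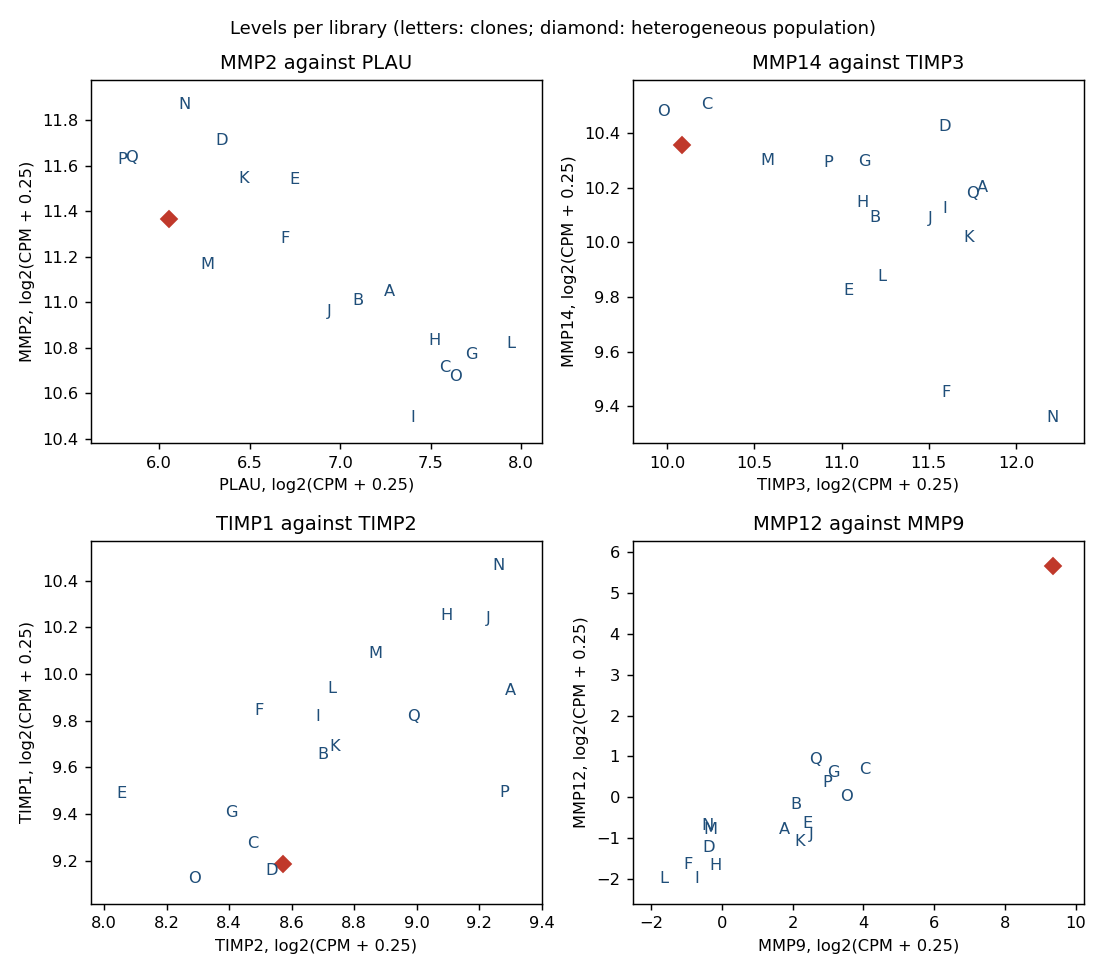
Levels per library on a log2(CPM + 0.25) scale for 4 pairs of genes; letters are clones and the diamond is the heterogeneous population, which entered no correlation. MMP2 fell as PLAU rose (r = -0.88 over 17 clones), MMP14 with TIMP3 (r = -0.61) and TIMP1 with TIMP2 (r = 0.69) were not called, while MMP12 and MMP9 are shown for the distance of the heterogeneous population from the clones.

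MMP2 was the gene whose level over clones went with that of many others: 1349 of 10350 genes were correlated with it at an adjusted p under 0.05, 580 positively (5.60%) and 769 negatively (7.43%). The same count was 73 for MMP14, 17 positive (0.164%) and 56 negative (0.541%). It was 26 for TIMP3, 15 positive (0.145%) and 11 negative (0.106%). It was 0 for TIMP1 and TIMP2, where 1385 (13.4%) and 1780 (17.2%) genes had an unadjusted permutation p under 0.05. The smallest adjusted permutation p was 0.0517 for both. EPB41L5 with TIMP1 and RGS10 with TIMP2 already had the smallest p that 100000 resamples allow. A larger r could not have lowered it, so the 0 does not show that TIMP1 and TIMP2 differ from the other members. The counts of the 5 genes moved with the scaling and with single clones. With TMM-scaled CPM they were 2455 for MMP2, 177 for MMP14, 849 for TIMP3, 46 for TIMP1 and 131 for TIMP2. Leaving out clone Q left 613 genes for MMP2, leaving out N left 0 for MMP14, and leaving out C, N or O left 0 for TIMP3.

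Of 50 genes of the plasminogen activator and cathepsin system, other MMPs, inducers and substrates that were tested, 6 were correlated with MMP2, 4 positively (8%, against 5.60% of all genes) and 2 negatively (4%, against 7.43%). These shares were near those of all genes, and nothing is read from the list as a whole. The most strongly related was PLAU, urokinase, which turns plasminogen into the protease plasmin. MMP2 fell as PLAU rose, with r = -0.88 (permutation p = 3e-05, adjusted p = 0.00526, rho = -0.88, permutation p = 4e-05), r = -0.87 without clones D and N, and r between -0.90 and -0.87 when each clone was left out in turn. PLAU ranged from 55.2 CPM in clone P to 246 CPM in clone L, and clones P, Q, N and D were low in it and high in MMP2. Clone M was also low in PLAU (76.7 CPM), but its MMP2 level of 2296 CPM was near the clone median of 2115 CPM. TGFB1, the transforming growth factor, also ran opposite to MMP2 (r = -0.72, permutation p = 0.00117, adjusted p = 0.0219, rho = -0.80, permutation p = 0.00026, r = -0.73 without D and N). Without clone Q its r was -0.69 and its adjusted permutation p was 0.0506.

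The other four genes of that count ran with MMP2. CTSB and CTSK, the lysosomal cathepsins B and K, had r = 0.82 (permutation p = 5e-05, adjusted p = 0.00551, rho = 0.86, permutation p = 3e-05, r = 0.77 without D and N) and r = 0.80 (permutation p = 0.00012, adjusted p = 0.00812, rho = 0.82, permutation p = 0.00014, r = 0.70 without D and N). RECK, a membrane-anchored inhibitor of MMPs, had r = 0.73 (permutation p = 0.00073, adjusted p = 0.0181, rho = 0.67, permutation p = 0.00479, r = 0.65 without D and N). ELN, the elastic fibre protein elastin and an MMP substrate, had r = 0.67 (permutation p = 0.00255, adjusted p = 0.0304, rho = 0.65, permutation p = 0.00554, r = 0.66 without D and N). Of 6 markers of cycling cells (MKI67, TOP2A, CCNB1, CDK1, BIRC5 and CCNA2), 0 were called with MMP2 by the permutation test of Pearson r. The smallest adjusted permutation p was 0.0534, with r between -0.63 and -0.54. By rho, BIRC5 passed (rho = -0.68, adjusted permutation p = 0.0348), and the others had an adjusted permutation p of 0.0541 or more. The part of the cycling markers in the MMP2 relations was not tested.

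For MMP14, TIMP1, TIMP2 and TIMP3, 0 of the same 50 genes were called by the permutation test. The smallest adjusted p was that of PLAUR, the urokinase receptor, with TIMP3 (r = -0.79, permutation p = 0.00042, adjusted p = 0.0717, rho = -0.63, permutation p = 0.00838, r = -0.46 without clones C and O). For TIMP2 it was that of RUNX2, a transcription factor of bone-forming cells (r = -0.71, permutation p = 0.00169, adjusted p = 0.0939, rho = -0.74, permutation p = 0.00114, r = -0.70 without clones A and E). PLAUR was highest in clones O (1097 CPM) and C (946 CPM), the closest pair of libraries, against a clone median of 74.4 CPM.

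**Figure D4:**
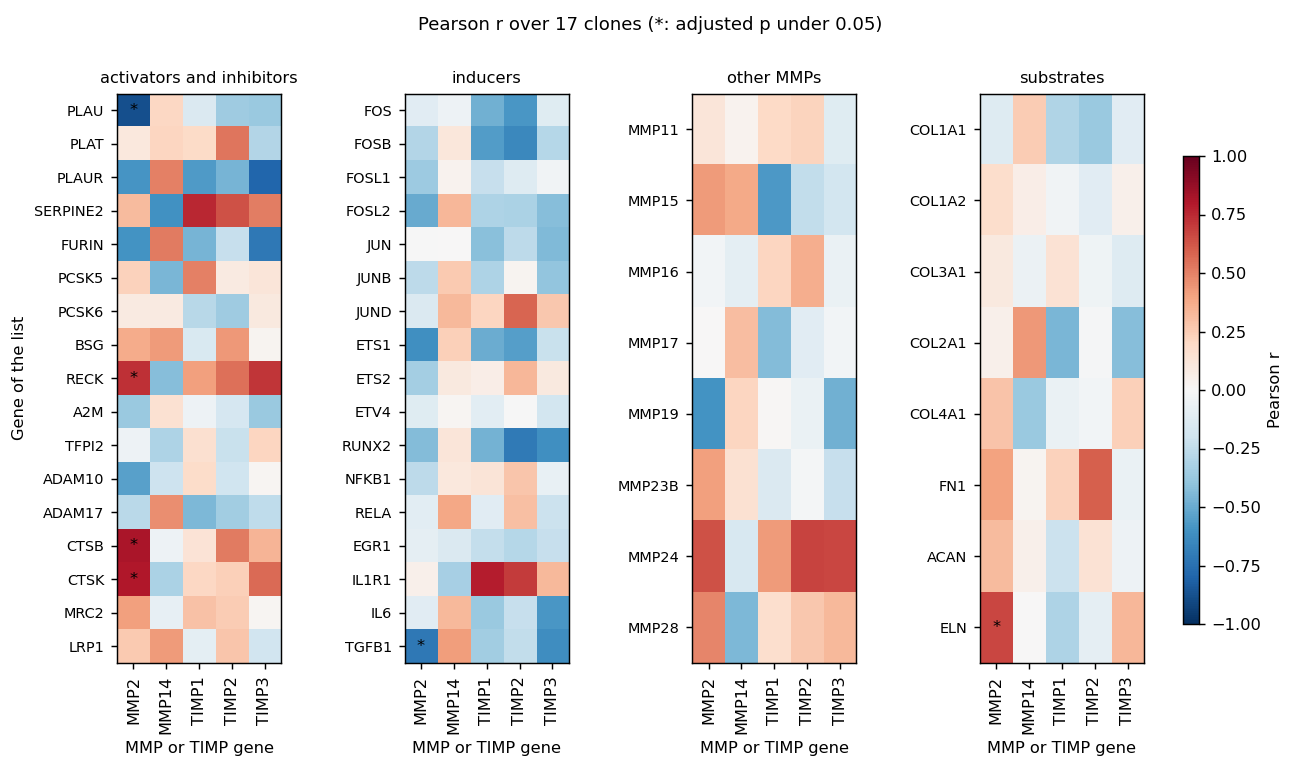
Pearson r over the 17 clones of the 5 abundant MMP and TIMP genes (columns) with 50 genes of 4 lists (rows), from blue (-1) to red (1); stars mark an adjusted permutation p under 0.05. All 6 stars are in the MMP2 column: PLAU and TGFB1 negative, RECK, CTSB, CTSK and ELN positive.

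The genes most like each member over the clones, by Pearson r among the 10350, were as follows. MMP2 was followed most closely by GLRB (r = 0.91), BCL2L2 (0.91) and HSF2BP (0.90), all with an adjusted permutation p of 0.00398. MMP14 was followed by KLHL36 (0.93, and 0.79 without clones F and N), FAM160A2 (0.85) and ASB13 (0.84). TIMP3 was followed by TMEM14C (0.88, and 0.75 without C and O), FAM63B (0.85) and CDC42EP3 (0.84). TIMP2 was followed by RGS10 (0.90), PICK1 (0.86) and NADSYN1 (0.85), and TIMP1 by EPB41L5 (0.84), PARP9 (0.82) and RAB8B (0.82). By Pearson r, none of the genes named for TIMP1 and TIMP2 passed an adjusted permutation p of 0.05. For EPB41L5 and RGS10 the number of resamples set that limit. By rho, the adjusted permutation p was 0.0345 for RGS10, 0.0478 for PICK1 and 0.0402 for NADSYN1. It was 0.0591 or more for the genes named with MMP14, TIMP3 and TIMP1. The orders by r are ranks over 17 points, in which 2 genes of 1 library share its total.

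Het was compared with the 17 clones to ask which MMPs and TIMPs differed between a mixed culture and cultures grown from single cells. Of the 10 genes, 9 were tested and 1 was called, where 1.22% of all 11878 genes tested were called (145 genes, of which 144, or 1.21%, were higher in Het and 1, or 0.00842%, lower). MMP12 was higher in Het by 6.67 on the log2 scale (SE 0.72, adjusted p = 1.22e-05, edgeR quasi-likelihood test), above 17 of 17 clones, and it stayed called in every alternative fit. In the clones alone it passed the filter on low counts when 1 clone formed its own group, but not with the 17 clones as 1 group. Het is 1 library and was assumed to vary as the clones do. A permutation over the 18 libraries could not go below a one-sided exact p of 0.0556.

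TIMP3 had the next largest difference among the well-counted genes, at -1.18 (log2, SE 0.62, unadjusted p = 0.0730, adjusted p = 0.670, edgeR quasi-likelihood test), and was not called. TIMP1 was at -0.53 (SE 0.42, adjusted p = 0.758, edgeR), MMP14 at 0.31 (SE 0.32, adjusted p = 0.827, edgeR), MMP2 at 0.22 (SE 0.45, adjusted p = 0.920, edgeR), TIMP2 at -0.17 (SE 0.39, adjusted p = 0.933, edgeR) and TIMP4 at -0.57 (SE 0.76, adjusted p = 0.864, edgeR). MMP1 and MMP3, with 1 and 0 reads in Het, were at or under the limit of 3 reads there and get no fold. Read by ratio, MMP2 per TIMP3 was 2.43 in Het, above all 17 clones (0.466 in clone I to 1.63 in clone P, median 0.879), a description with no test. MMP14 per TIMP3 was 1.21 in Het, above 15 clones and below O and C.

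**Figure D5:**
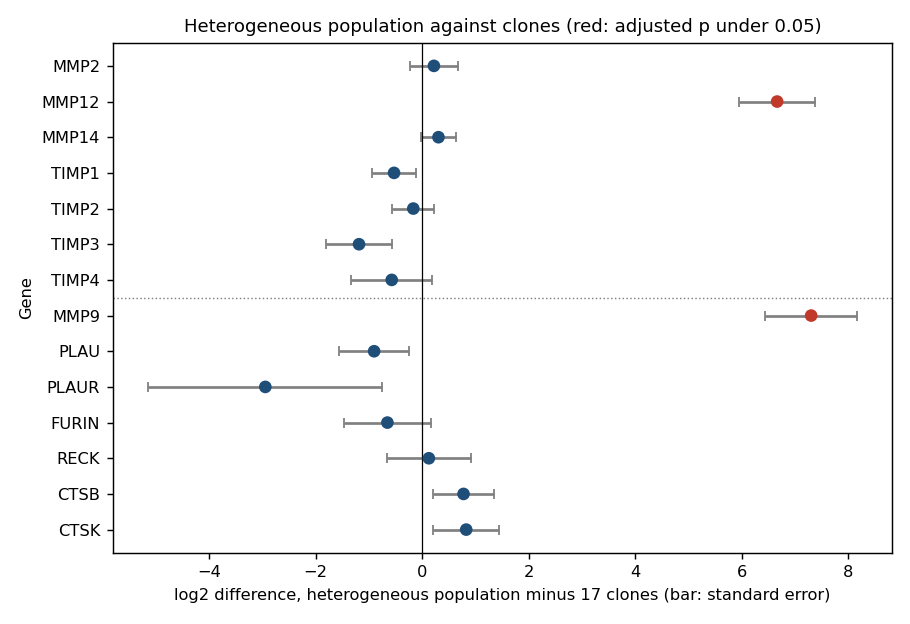
Log2 difference of the heterogeneous population minus the 17 clones for 7 of the MMP and TIMP genes (above the dotted line) and 7 related genes (below it), from edgeR; bars are standard errors and red marks an adjusted p under 0.05. MMP12 (6.67) and MMP9 (7.30) lie far to the right and were called, and the TIMPs lie left of 0 without being called; MMP1, MMP3 and MMP13 are left out because their counts in Het were too low for a fold or a test.

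MMP12 was high in the 1 library, Het, in which markers of macrophages, the cell type for which it is named, were also high. Of 20 macrophage markers, 11 passed the filter on low counts without the help of Het. All of these but CTSS lay above every clone in Het, where 6.62% of all genes tested did. A further 5 (CD86, C1QA, TYROBP, CD74 and CCL3) passed the filter only through Het, so no count of calls is given for the list. C1QB, C1QC and LYZ had 1 to 9 reads in Het and were not tested, and ITGAM was at 0 in every library. Summed without CTSS, which the clones also carry, the other 19 markers came to 3.09 to 10.4 CPM in the clones (median 5.15) and 194 CPM in Het. PTPRC, the pan-leukocyte marker CD45, had at most 10 reads in any clone and 102 in Het. In bulk RNA, fewer cells of a type and less RNA per cell cannot be told apart, and the part of such cells in the MMP12 level was not tested. Within the clones, the 5 with most MMP12 by CPM (Q, C, G, P and O) were also the 5 with most MMP9, and by macrophage marker sum C, O and G ranked 1 to 3 of 17, Q ranked 6 and P ranked 15.

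Of 17 other MMPs, 13 were in the files, 9 were tested and 1 was called: MMP9 (gelatinase B), at 10509 reads in Het against at most 229 in any clone (log2 difference 7.30, SE 0.86, adjusted p = 2.69e-05, edgeR quasi-likelihood test). The 3 other MMPs with the highest mean over clones were not called. These were MMP16, a membrane-type MMP (24.1 to 238 CPM in clones, 28.0 in Het), MMP11, stromelysin 3 (32.0 to 89.0 CPM, 35.9 in Het) and MMP19 (6.27 to 40.8 CPM, 17.3 in Het).

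Of 19 activators, inhibitors and receptors of the system that were tested, 0 were called by edgeR in either direction, and none had an adjusted p under 0.328. 5 of them lay above every clone (SERPINB2, PCSK6, A2M, ADAM17 and LRP1), where 6.62% of all genes did, and PLAUR lay below every clone, where 10.9% of all genes did. LRP1, an endocytic receptor that clears MMPs and their complexes with TIMPs, had 9739 CPM in Het against 3963 to 7500 CPM in the clones (log2 difference 0.85, SE 0.28, adjusted p = 0.328, edgeR).

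Of inducers, transcription factors and cytokines known to act on MMP genes, 18 passed the filter without the help of Het and 0 of them were called by edgeR, where 1.22% of all genes were. IL8, a chemokine, had 44 reads in Het and at most 3 in any clone. It entered the test only through Het, so this is a description with no test. Including IL8, 4 of 19 lay above every clone (FOS, FOSB, JUN and IL8), where 6.62% of all genes did. FOS, FOSB and JUN are parts of the AP-1 factor, and of the other AP-1 genes in the list JUNB lay above 14 clones, JUND above 9, and FOSL1 and FOSL2 above 1 clone each. FOS had 481 CPM in Het against 19.0 to 264 CPM in the clones. None of the 8 matrix substrates was called by edgeR (adjusted p of 0.706 or more), nor any of the 8 stromal markers tested. Of the 8 substrates, 1 lay above every clone in Het (COL1A1) and 1 below (COL2A1), where 6.62% and 10.9% of all genes did. Of the 8 stromal markers, 0 lay above every clone and 2 below (NT5E and ALCAM). The most abundant of these substrates were COL1A1 and COL1A2, the chains of type I collagen, and FN1, fibronectin. COL1A1 had 15245 CPM in clone N, the lowest, a clone median of 59992 CPM and 107492 CPM in Het. CPM are shares of a library total. Scaled by library totals in place of TMM, the MMP14 difference of clone N from the other clones was -0.81 (log2) in place of -0.96. Cycling markers had a median log2 difference of -3.47 with 0 of 6 called, and 5 of 6 lay below every clone. The part of cell cycling in the Het values of TIMPs and MMPs was not tested.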

How the data were processed

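Polyadenylated RNA of 17 clones and 1 heterogeneous population of bovine MSCs was measured by RNA-seq. According to the study's methods and the submitters' processing notes, the authors aligned reads with STAR 2.3.0e to bosTau7, used SAMtools and counted reads per RefSeq gene symbol with HTSeq. The deposited values are raw counts per gene and library, not normalized. The deposited table of the whole series held the same values, with 0 cells differing. The strand setting is not given in the sources used here, and the kit named in the labels does not mark strand. The 5 tally lines of HTSeq were left out of library totals; reads on no feature were 18.8 to 26.8% and ambiguous reads 0.164 to 0.192%.

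Totals of 11484812 to 18458157 reads per clone set the precision; exact Poisson 95% intervals cover counting error only. Counts were tested in R 4.3.3 with edgeR 4.0.16 (TMM scaling, filterByExpr with the compared library as its own group, quasi-likelihood test, Benjamini-Hochberg over all genes tested), for Het against the clones and for each clone against the others. DESeq2 1.42.0 and limma 3.58.1 were alternatives. Correlations over the 17 clones used log2(CPM + 0.25), two-sided permutation p-values from 100000 resamples (p no smaller than 1e-05) and genes passing the filter over clones with Python 3.11.15, numpy 2.4.6 and scipy 1.17.1. Figures were drawn with matplotlib 3.10.9. Scripts were tested on simulated data. RefSeq names for ARS-UCD2.0 matched 15471 of 16989 symbols (16350 with synonyms); they served for names and neighbours only, since the build differs.

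The text names the 10 genes; for each of the 5 with a mean of at least 1 CPM, the 3 genes with the largest r; genes of the pathway lists called in Het, with up to 3 of the most abundant per list; and cell type markers. Overlapping genes and list genes that were called in a correlation, came nearest to a call or lay outside every clone in Het were added once their values had been seen. The members and lists were chosen with earlier results of these data known. Of the pathway lists, 1 gene is not reported here and was left out of the counts. Columns of other series numbered 0.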

Additional observations from a re-analysis of the deposited data

How the results depend on the processing

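The count of genes called between Het and the clones was 145 and fell to 89 with the DESeq2 Wald test; it was 145 with DESeq2 size factors, 136 with library totals, 204 without a filter, 134 with limma, and 137 (without clone B) to 155 (without D) when each clone was left out. Leaving out M and N together, chosen after seeing the data, gave 145. MMP12 was called in each of these, at 6.59 to 6.87 (log2) with a clone left out, and it remained the 1 called gene of the 10. In each clone against the others, 0 of the 10 genes were called, and 1 with DESeq2. Pairs called among the 5 abundant genes numbered 0 under all alternatives. The number of the 10 genes whose SD exceeded the all-gene median was 9, 6 with a pseudocount of 1 CPM, 10 with TMM scaling and 8 (without E) to 9 with a clone left out. Among single values, the MMP2 relation with TGFB1 had r = -0.69 and an adjusted permutation p of 0.0506 without clone Q, against r = -0.72, and MMP14 in clone N gained a call with DESeq2. With Het added, genes correlated with MMP14 numbered 126 and with TIMP3 0; without clone A they numbered 546 for TIMP2 and 622 for TIMP3, and without clone L 197 for MMP14. The SD of MMP1 fell from 0.66 to 0.52 and that of MMP3 from 0.66 to 0.41 without clone M. No value reversed, and the cause of these changes was not tested. No paired analysis was possible because the labels give no replicate numbers shared between groups and the heterogeneous population has 1 library. Depth limits MMP1, MMP3, MMP13, TIMP4 and the clone levels of MMP12, which had at most 26 reads. Single libraries per culture leave differences between single clones without a replicate check.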
